A study of Mus musculus with 6 samples.

Results

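Toll-like receptors and innate sensing were described here through 36 genes, taken by symbol from the count table: the 12 Toll-like receptor genes, 4 accessory proteins, 4 adaptors, 7 genes of the kinase cascade below them, 3 genes of Nod1 and Nod2 sensing, 5 inflammasome genes and the lectin receptor Clec7a. All 36 were found among the 47069 genes of the table, each in 1 row, and all 36 were among the 17037 genes that passed the filter on low counts.

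The samples were whole lungs of adult C57BL/6J mice taken at ZT10, that is 10 hours after lights on, with 1 stranded mRNA library per mouse. Wild type mice (WT, libraries WT4 to WT6) were compared with mice carrying the Zpbp2 knockout (KO, libraries KO4 to KO6), in which the first exons of Zpbp2 are deleted. The KO strain, B6.129S7-Zpbp2tmZuk/Mmjax, was kept on the C57BL/6J background and the WT mice were born in the same colony, under a cycle of equal light and dark periods. The comparison asks what loss of Zpbp2, a gene of the asthma-associated 17q12-q21 region in humans, does to the lung transcriptome late in the light phase. Both sexes were used in the study and the labels give no sex per mouse. Whole lung holds every cell type of the organ. For each gene below, more or fewer cells of a type cannot be told apart from more or less RNA per cell.

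The libraries held 19981428 to 46796908 counts, with KO5 the deepest. The KO libraries held 0 counts of Zpbp2 and the WT libraries 1 or 2 each, a level too low to check the labels by itself. On the first principal component of all genes tested, which held 46.6% of the variance, the WT mice lay between -23.8 and -20.1 and KO4, KO6 and KO5 at 9.04, 16.9 and 38.6, so KO5 stood apart from the other KO mice. All 6 mice had Xist, the RNA of the inactive X chromosome, at 715 to 994 CPM (counts per 1000000 counts of the library). Counts of 4 Y-linked genes summed to 24 in KO5, to 1 in WT5 and to 0 in the other mice.

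Toll-like receptors recognise molecules shared by microbes. The surface receptors bind lipids, lipoproteins and flagellin, while the endosomal receptors bind nucleic acids and reach the endosome with the chaperone Unc93b1. Both kinds signal through the adaptors Myd88 and Ticam1 to the Irak kinases, Traf6 and the kinase Map3k7, and from there to NF-kB and interferon regulatory factors. Inflammasomes are cytosolic complexes in which a sensor such as Nlrc4 or Aim2 activates the protease Casp1, which matures interleukin 1 beta and interleukin 18. In lung these genes are used mainly by macrophages, monocytes, neutrophils, dendritic cells and B cells, and Tlr3, Tlr4, Tlr5 and Nod1 also by epithelium and vessels.

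Of the 36 members, 8 rose in the KO lungs at an adjusted p of at most 0.05 (edgeR's quasi-likelihood test, Benjamini-Hochberg adjustment over all genes tested) and 0 fell. They were the endosomal receptors Tlr7, Tlr9 and Tlr13, the surface receptor Tlr6, the inflammasome genes Nlrc4, Aim2 and Casp1, and Clec7a. Among all genes tested 6.39% were called, 3.72% higher and 2.67% lower. The fold changes of the 8 ran from 1.47 for Clec7a to 3.77 for Tlr9. Only Tlr9 and Tlr13 also reached the log2 fold change of 1.5 that the study required, a rule met by 0.64% of all genes. The study's own ZT10 list, from its own fits, held Tlr13 but not Tlr9. At an unadjusted p under 0.05 there were 20 members, 0 of them lower, beside 25.5% of all genes in either direction and 11.6% lower. DESeq2 called 14 members at an adjusted p of at most 0.05, the 8 above and Tlr1, Tlr2, Unc93b1, Ticam2, Irak3 and Pycard, 0 of them lower, beside 11.9% of all genes. The median log2 fold change of the 36 was 0.29, against 0.00 over all genes tested.

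In 21 members every KO mouse lay above every WT mouse, and in 0 members below, where 17.0% and 15.6% of all genes tested did so. With 3 mice against 3, a two-sided exact permutation test on 1 gene cannot give less than p = 0.1, which those 21 members reached. The calls depended on which mice entered the fit. Without KO5, 10 members were called (5.48% of all genes), 7 of them among the 8, with Tlr6 at an adjusted p of 0.07. Without KO4, 9 members were called, with 7.3% of all genes. Without KO6 only Tlr13 and Casp1 were called, with 0.672% of all genes. Without WT4 the called members were Tlr7, Tlr13, Casp1 and Ticam2, with 1.48% of all genes. Without WT6 it was Casp1 alone, with 0.368% of all genes. Without WT5 no member was called, and 1 gene of the whole table was, 0.0057% of all. The adjusted p of the 8 then lay between 0.0566 and 0.175. In that fit 16 of the 36 had an unadjusted p under 0.05, but the share of all genes doing so was not counted. In each of these 6 fits all 8 remained higher in the KO mice. That direction was fixed in advance, because every KO mouse lay above every WT mouse for all 8.

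**Figure D1:**
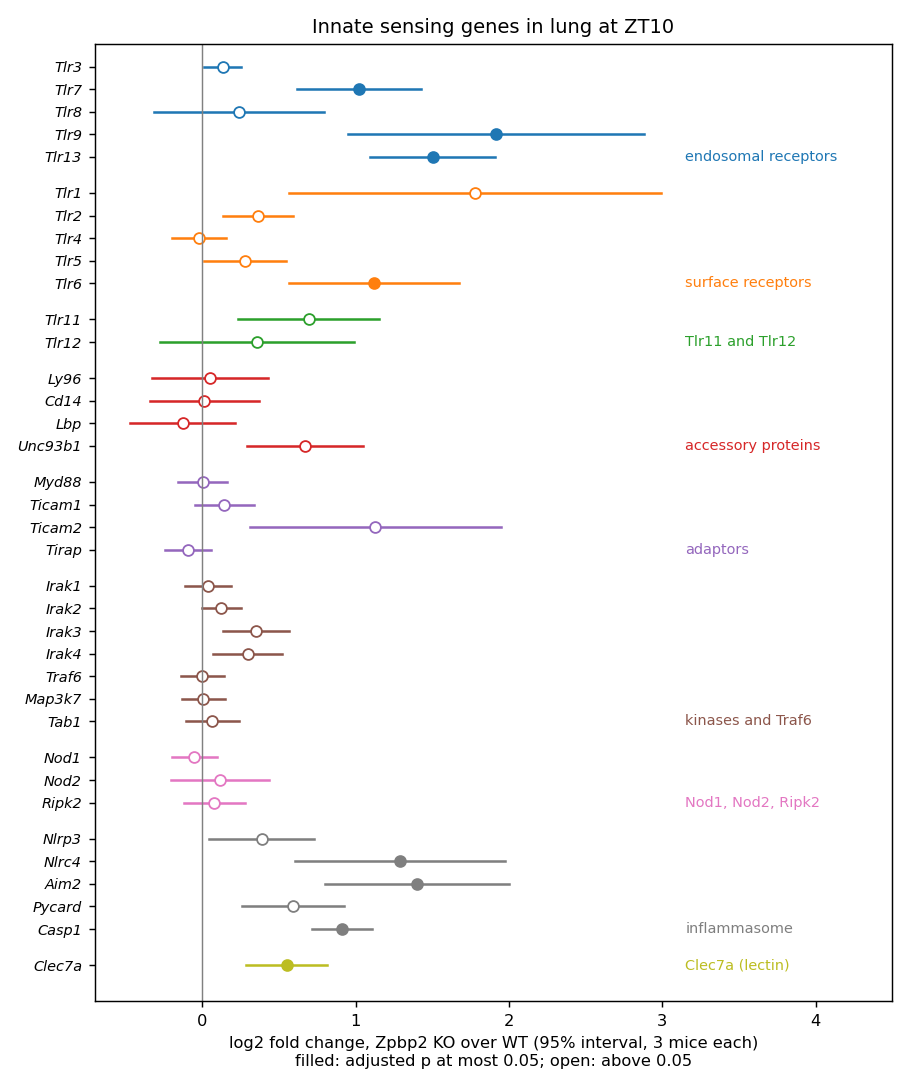
Log2 fold change of each member gene, KO over WT, with its 95% interval (edgeR, 3 mice a group), grouped by role; filled points have an adjusted p of at most 0.05. The filled points lie among the receptors, the inflammasome genes and Clec7a, between 0.55 and 1.92, and most adaptors and kinases lie close to 0, apart from the adaptor Ticam2 at 1.13 (open).

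Of the 5 endosomal receptors, 3 rose. Tlr13, which binds a sequence of bacterial ribosomal RNA in the mouse and has no human counterpart, is on chrX:106143204-106160493, plus strand. Its levels were 10.7, 8.67 and 8.34 CPM in WT4, WT5 and WT6 and 27.9, 20.3 and 30.6 CPM in KO4, KO5 and KO6. Even the lowest KO mouse, KO5, was well above the highest WT mouse. The log2 fold change was 1.504 ± 0.17 (SE, n = 3 mice a group), an adjusted p of 0.0118 and a 95% interval from 1.10 to 1.91, and without KO5 it was 1.66.

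Tlr7, the receptor for single-stranded RNA on chrX:167304929-167330558, minus strand, measured 17.2, 12.4 and 12.5 CPM in WT mice against 23.1, 30.0 and 32.4 CPM in KO4, KO5 and KO6. The groups did not overlap, and the nearest mice were WT4 and KO4. Its log2 fold change was 1.02 ± 0.17, adjusted p = 0.0252. Tlr8, its neighbour on the same strand 40599 bases away, also recognises RNA and did not follow it. Tlr8 stood at 20.01, 14.4 and 10.9 CPM in WT mice against 14.1, 18.2 and 21.03 CPM in the KO mice, with the groups interleaved and a log2 fold change of 0.24 (95% interval -0.31 to 0.79, adjusted p = 0.574). Taken as the ratio of both genes' counts within a mouse, Tlr7 over Tlr8 was 0.861, 0.863 and 1.14 in WT4, WT5 and WT6 against 1.63, 1.65 and 1.54 in KO4, KO5 and KO6, so every KO ratio lay above every WT ratio.

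Tlr9, which recognises unmethylated CpG DNA and is on chr9:106222598-106226883, plus strand, had the largest fold change of the members. It was 4.19, 3.40 and 4.11 CPM in WT mice against 8.11, 24.9 and 10.8 CPM in KO4, KO5 and KO6. All KO mice were above all WT mice, and KO5 was 2.64 times the mean of KO4 and KO6. The log2 fold change of 1.92 ± 0.41 (adjusted p = 0.0426) became 1.27 without KO5, with an adjusted p of 0.0146. Tlr3, the receptor for double-stranded RNA that signals through Ticam1, was the endosomal receptor with the smallest difference. It lay at 42.7, 39.6 and 41.3 CPM in WT mice against 45.6, 44.4 and 45.8 CPM in the KO mice. These ranges were close but did not overlap, and the log2 fold change of 0.13 had an adjusted p of 0.16 and a 95% interval from 0.01 to 0.26.

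The sequences before the starts of Tlr13, Tlr9 and Tlr3 are shown because the first pair rose and the third was not called. RefSeq start windows on GRCm38.p6 were matched by symbol for 27 of the 36 members; Tlr4, Tlr7, Ly96, Lbp, Unc93b1, Ripk2 and Tab1 are named only, as are Cd14 and Ticam2. Each run below is the 250 bases before the start nearest to the annotated gene start, 5′ to 3′ on the gene's strand, and capitals mark the letters of the motifs searched on both strands. These were GAGGAA (core of the myeloid and B cell factor PU.1), GAAANNGAAA (interferon response core), GGAANNGAAA (ETS-IRF composite), GGGANNNNCC (kappaB), AGGTCA (half-site of the REV-ERB and ROR clock receptors) and CACGTG (E-box of the clock factors). A match is a description of letters and not a bound site.
Tlr13, chrX:106143025-106143274, plus strand: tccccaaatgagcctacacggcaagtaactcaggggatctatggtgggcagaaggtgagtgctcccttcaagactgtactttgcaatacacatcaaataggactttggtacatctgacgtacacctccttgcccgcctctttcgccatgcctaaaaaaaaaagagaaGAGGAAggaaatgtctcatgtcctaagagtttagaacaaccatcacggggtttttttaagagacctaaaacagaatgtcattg
Tlr9, chr9:106222348-106222597, plus strand: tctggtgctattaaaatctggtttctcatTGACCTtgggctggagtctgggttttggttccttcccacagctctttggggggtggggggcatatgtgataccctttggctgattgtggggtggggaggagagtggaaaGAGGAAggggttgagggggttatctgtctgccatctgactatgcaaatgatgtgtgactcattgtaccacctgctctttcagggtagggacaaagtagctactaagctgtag
Tlr3, chr8:45410381-45410630, minus strand: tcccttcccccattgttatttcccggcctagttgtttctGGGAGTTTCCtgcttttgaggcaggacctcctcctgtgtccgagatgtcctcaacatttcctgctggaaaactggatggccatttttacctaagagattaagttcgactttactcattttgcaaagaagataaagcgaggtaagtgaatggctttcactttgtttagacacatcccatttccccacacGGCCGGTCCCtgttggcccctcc
The Tlr13 window holds the PU.1 core 83 bases before the start. The Tlr9 window holds it 112 bases before the start, with a REV-ERB and ROR half-site at 221 bases. The Tlr3 window holds kappaB letters at 211 and 23 bases. The PU.1 core does not set called receptors apart. The windows of Tlr8 and Tlr1, which were not called, hold it too, that of Tlr8 at 77 bases. The RefSeq starts lie 71, 0 and 700 bases from the GENCODE starts of Tlr13, Tlr9 and Tlr3. The start used for Aim2 lies 69725 bases from its GENCODE start and that of Myd88 1393 bases. Over the 27 members, 12 windows hold the PU.1 core, where 23.3% of all 32851 windows of this length do. For the called members it was 5 of 7 (Tlr9, Tlr13, Aim2, Casp1 and Clec7a, not Tlr6 or Nlrc4). The kappaB letters were in 7 of the 27 windows and in 0 of the 7 of called members, beside 17.6% of all windows. The half-site AGGTCA was in 5 of 27 (14.0% of all windows), the E-box in 2 (6.02%), the interferon response core in 2 (2.98%) and the ETS-IRF composite in 1 (2.3%).

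Among the 5 surface receptors Tlr6 rose. Tlr6, a partner of Tlr2 for diacylated lipoproteins on chr5:64952031-64960097, minus strand, was the least abundant of them at 1.77, 2.44 and 1.55 CPM in WT mice against 3.86, 5.08 and 3.41 CPM in the KO mice. All KO mice were above all WT mice, with a log2 fold change of 1.12 ± 0.24 and an adjusted p of 0.0412. It was the called member with the least support, called in 0 of the 6 fits with 1 mouse removed.

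Tlr1, the partner of Tlr2 for triacylated lipoproteins, lies beside Tlr6 and is similar to it in sequence, so reads could be shared between them. It was 4.75, 4.94 and 4.98 CPM in WT mice against 7.82, 31.9 and 9.92 CPM in KO4, KO5 and KO6. KO5 alone was 3.60 times the mean of the other KO mice, the largest such ratio of the 36 members. Its log2 fold change of 1.78 ± 0.52 had an adjusted p of 0.0869, and without KO5 it was 0.86 with an adjusted p of 0.0241. Within a mouse, Tlr1 counts were 2.02 to 3.21 times those of Tlr6 in all mice but KO5, where they were 6.29 times.

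Tlr2, the shared partner, was 27.4, 24.2 and 29.6 CPM in WT mice against 36.6, 31.6 and 36.8 CPM in the KO mice. The groups did not overlap, and the log2 fold change of 0.37 missed the threshold with an adjusted p of 0.0703. Tlr4, the receptor for lipopolysaccharide, was 33.9, 28.9 and 29.2 CPM in WT against 30.3, 30.2 and 30.3 CPM in KO lungs, with a log2 fold change of -0.02 with a 95% interval from -0.20 to 0.16. Tlr5, the flagellin receptor, stood at 14.8, 11.1 and 12.6 CPM and at 15.4, 15.6 and 15.7 CPM, with no overlap and an adjusted p of 0.179. Tlr4 was the Toll-like receptor with the smallest difference, and its interval excludes a change of the size seen for Tlr7 or Tlr13.

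The remaining receptors, Tlr11 and Tlr12, sense the profilin of protozoa in mouse endosomes. Tlr11 was 1.81, 1.87 and 1.62 CPM in WT mice against 2.30, 3.42 and 2.77 CPM in the KO mice, without overlap and with an adjusted p of 0.0805. Tlr12 was 5.88, 4.60 and 3.62 CPM in WT mice against 4.25, 7.95 and 5.68 CPM in the KO mice, with the groups overlapping.

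Set side by side, the endosomal class had a median log2 fold change of 1.02 and the surface class of 0.37. Tlr11 and Tlr12, which also sense in endosomes, were counted in neither class. Their log2 fold changes of 0.69 and 0.36 lay below the endosomal median, so counting them there would lower it. Taken per mouse as the median over the class of the log2 level against the WT mean, the endosomal receptors were at 0.70, 1.07 and 1.18 in KO4, KO5 and KO6 and the surface receptors at 0.43, 0.28 and 0.44. The endosomal median exceeded the surface median by 0.27, 0.79 and 0.74 in the KO mice and by 0.18, 0.00 and -0.11 in the WT mice. Neither class moved as a block, since Tlr3 and Tlr8 were among the endosomal receptors not called and the surface receptors ran from -0.02 for Tlr4 to 1.78 for Tlr1. Summed over the class, endosomal receptors ranged from 77.1 to 94.8 CPM over the WT mice and from 119 to 141 CPM over the KO mice, and surface receptors from 71.5 to 82.7 CPM and from 93.9 to 115 CPM. These class values are descriptions, and the difference between the classes was not tested.

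**Figure D2:**
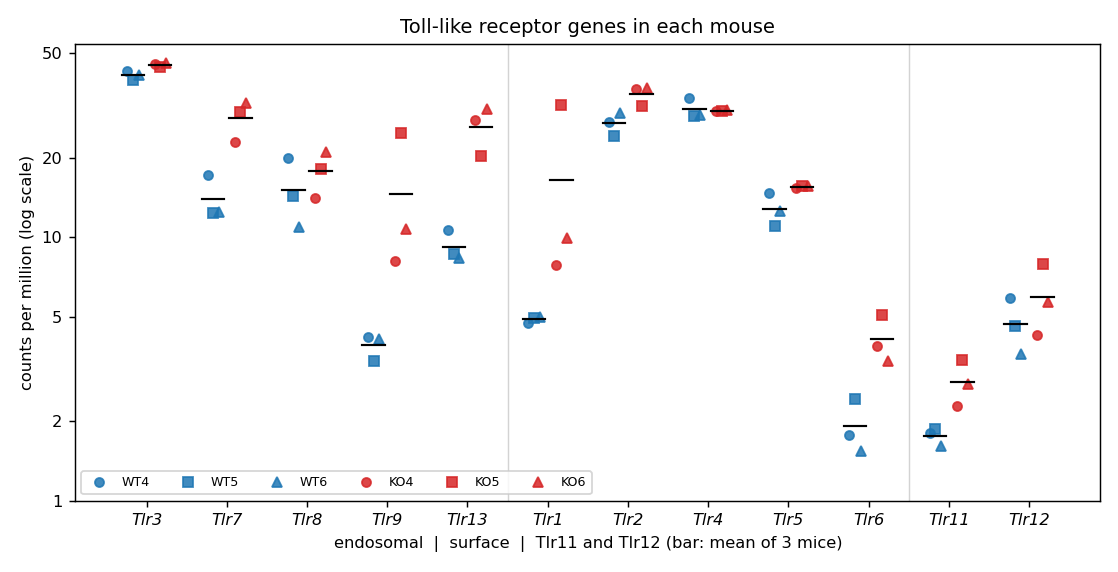
CPM of the 12 Toll-like receptor genes in each mouse on a log axis, with bars at the group means (3 mice). The called receptors Tlr7, Tlr9, Tlr13 and Tlr6 show every KO mouse above every WT mouse. So do Tlr3, Tlr1, Tlr2, Tlr5 and Tlr11, which were not called, while Tlr4, Tlr8 and Tlr12 overlap. KO5 (red square) is far above the other KO mice for Tlr1 and Tlr9 and below them for Tlr13.

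Levels of different genes were compared per kb of annotated exon length. In WT lungs, Tlr2 led at 8.98 ± 0.91 CPM per kb (SD, n = 3), followed by Tlr3 at 7.91 ± 0.30, Tlr4 at 5.52 ± 0.51, Tlr8 at 4.21 ± 1.28, Tlr7 at 3.44 ± 0.68, Tlr5 at 2.67 ± 0.39 and Tlr13 at 2.14 ± 0.29. Tlr12, Tlr1, Tlr9, Tlr11 and Tlr6 followed at 1.48, 1.46, 1.12, 0.539 and 0.516 CPM per kb. The ranges of neighbours in this order overlapped, except between Tlr3 and Tlr4, Tlr13 and Tlr12, Tlr1 and Tlr9, and Tlr9 and Tlr11. In KO lungs, Tlr7 at 6.98 ± 1.19 and Tlr13 at 6.10 ± 1.24 CPM per kb stood next after Tlr2 (11.6 ± 0.97) and Tlr3 (8.69 ± 0.14). All KO mice had Tlr7 above the level of Tlr4 (5.45 ± 0.01), while Tlr13 overlapped with Tlr4 and with Tlr8 (4.96 ± 0.97). The most abundant members per length in WT lungs were Unc93b1 at 25.6, Irak1 at 22.6, Nod1 at 21.1 and Cd14 at 16.4 CPM per kb, each above every Toll-like receptor. Ticam2 was the least abundant member, at 0.316 CPM per kb.

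The proteins that present ligand or deliver the receptors showed 0 calls among 4 by edgeR, with 1 at an unadjusted p under 0.05 and 1 called by DESeq2. Unc93b1, which carries the endosomal receptors out of the endoplasmic reticulum, came nearest at 79.2, 75.1 and 78.1 CPM in WT mice against 101, 159 and 110 CPM in KO4, KO5 and KO6. Every KO mouse was above every WT mouse, and the log2 fold change of 0.67 ± 0.16 had an adjusted p of 0.0537, of 0.0138 without KO5 and of 0.000346 by DESeq2. Ly96 (MD-2) and Cd14, which hold lipopolysaccharide for Tlr4, and Lbp, which delivers it, had log2 fold changes of 0.05, 0.02 and -0.13, with overlapping groups. Lbp and Cd14 were lowest in KO5, at 0.693 and 0.700 times the mean of the other KO mice.

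Of the 4 adaptors, 0 were called by edgeR, and 1, Ticam2, had an unadjusted p under 0.05 and was called by DESeq2. Myd88, used by nearly all of these receptors, was 41.3, 42.5 and 39.2 CPM in WT mice against 37.9, 42.4 and 43.0 CPM in the KO mice. The groups overlapped throughout, with a log2 fold change of 0.00 and a 95% interval from -0.15 to 0.16, though reads of Myd88 may be shared with the genes that overlap its exons, Acaa1a and Slc22a14. Ticam1 (TRIF) and Tirap, the adaptors of Tlr3 and of Tlr2 and Tlr4, were at 0.14 and -0.09. Ticam2, which bridges Tlr4 to Ticam1, was 2.94, 1.10 and 1.46 CPM in WT mice against 3.32, 4.28 and 4.44 CPM in the KO mice. WT4 was close to KO4, so the log2 fold change of 1.13 ± 0.35 had an adjusted p of 0.0997, and without WT4 it was 1.64 and passed the threshold. Ticam2 shares exons with Tmed7 on the same strand, so its counts are uncertain.

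Of the 7 genes of the kinase cascade 0 were called by edgeR, although 3 had an unadjusted p under 0.05 and DESeq2 called 1. Irak3 (IRAK-M), the family member that restrains signalling, had the largest difference, at 13.3, 15.4 and 13.7 CPM in WT mice against 18.4, 18.9 and 16.7 CPM in the KO mice. The groups did not overlap, and its log2 fold change of 0.35 had an adjusted p of 0.0658 by edgeR and 0.0428 by DESeq2. Irak4, the first kinase recruited to Myd88, was at 0.30 and Irak2 at 0.13, both without overlap between groups. Irak1, Traf6, Map3k7 (TAK1) and its partner Tab1 lay between 0.00 and 0.07, all with overlapping groups, and the 95% intervals of Traf6 and Map3k7 stayed between -0.14 and 0.15.

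The cytosolic peptidoglycan sensors Nod1 and Nod2 and their kinase Ripk2 were not called, with log2 fold changes of -0.05, 0.12 and 0.08 and overlapping groups in all 3, 0 of them at an unadjusted p under 0.05 or called by DESeq2. Nod1 was abundant, at 100.4 to 113 CPM in WT mice against 98.8 to 107 CPM in the KO mice.

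Of the 5 inflammasome genes 3 rose, and in all 5 the groups did not overlap. Casp1, the protease shared by these complexes on chr9:5298517-5307265, plus strand, was 12.2, 12.8 and 12.3 CPM in WT mice against 21.7, 25.3 and 23.1 CPM in the KO mice. It had the lowest adjusted p of the 36 members, 0.00665, with a log2 fold change of 0.91 ± 0.08, and it was called in 5 of the 6 fits with 1 mouse removed (0.0566 without WT5). Aim2, the sensor of cytosolic DNA, was 8.17, 6.42 and 8.21 CPM in WT mice against 13.9, 27.9 and 18.1 CPM in the KO mice. It was highest in KO5 and above the WT range in each KO mouse, with a log2 fold change of 1.401 ± 0.25, an adjusted p of 0.0287 and a log2 fold change of 1.07 without KO5. Nlrc4, which responds to flagellin and secretion systems with Naip proteins, was 3.46, 2.54 and 3.07 CPM in WT mice against 5.57, 10.8 and 5.68 CPM in the KO mice. KO5 was 1.92 times the mean of the other KO mice, and the log2 fold change of 1.29 ± 0.29 (adjusted p = 0.047) became 0.89 without KO5.

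Pycard (ASC), the adaptor joining sensors to Casp1, was 11.4, 10.7 and 10.8 CPM in WT mice against 13.5, 19.7 and 16.2 CPM in the KO mice, without overlap and with an adjusted p of 0.0535. Nlrp3, the sensor of membrane damage, had a log2 fold change of 0.39 and an adjusted p of 0.153. Nlrp3 is the only member on chromosome 11, which also carries the deletion, and lies 39.0 Mb from Zpbp2. Clec7a (dectin-1), the receptor for fungal beta-glucan on chr6:129461591-129472779, minus strand, was 44.2, 35.6 and 39.8 CPM in WT mice against 57.6, 51.7 and 66.3 CPM in the KO mice. It had the smallest called change, 0.55 ± 0.11 on the log2 scale with an adjusted p of 0.0374, and unlike Aim2 and Nlrc4 it was lowest in KO5 among the KO mice.

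The windows before the starts of Casp1 and Clec7a are shown for comparison with those of Tlr9 and Tlr13, with capitals as above.
Casp1, chr9:5298267-5298516, plus strand: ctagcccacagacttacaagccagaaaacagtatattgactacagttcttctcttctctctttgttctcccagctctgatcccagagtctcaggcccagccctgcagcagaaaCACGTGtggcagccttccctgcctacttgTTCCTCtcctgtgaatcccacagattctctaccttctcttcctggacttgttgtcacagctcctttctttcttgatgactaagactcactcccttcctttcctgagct
Clec7a, chr6:129472780-129473029, minus strand: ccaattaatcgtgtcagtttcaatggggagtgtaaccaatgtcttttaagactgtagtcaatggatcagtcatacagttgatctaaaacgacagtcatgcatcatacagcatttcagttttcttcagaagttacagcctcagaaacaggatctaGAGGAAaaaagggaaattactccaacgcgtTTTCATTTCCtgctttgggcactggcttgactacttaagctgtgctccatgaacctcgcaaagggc
Both hold the PU.1 core, 108 bases before the start of Casp1 on the opposite strand and 96 bases before that of Clec7a. Casp1 also has the E-box at 137 bases and Clec7a the ETS-IRF composite at 66 bases. The windows of the called members Tlr6 and Nlrc4, which are not shown, hold none of the motifs searched.

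The KO mice differed from each other in a way that split the called members. KO5 was the highest of all 6 mice for 5 of the 8 called members and the lowest KO mouse for 2, Tlr13 and Clec7a. The ratio of KO5 to the mean of KO4 and KO6 was 3.60 for Tlr1, 2.64 for Tlr9, 1.92 for Nlrc4, 1.74 for Aim2 and 1.51 for Unc93b1. It was 1.08 for Tlr7 and 1.13 for Casp1, 0.834 for Clec7a and 0.694 for Tlr13.

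Marker lists of lung cell types also differed between these mice. Of 10 B cell markers, 0 were called by edgeR, 10 had an unadjusted p under 0.05 and DESeq2 called 8, and all 10 had every KO mouse above every WT mouse, and 8 were called by edgeR without KO5. Their summed level was 139 to 154 CPM in WT mice against 259 to 1096 CPM in the KO mice, where KO5 was 3.84 times the mean of the others. None of the 10 was at 0 in any mouse. T cell markers were also highest in KO5, at 2.22 times the mean of the others when summed, with 0 of 8 called by edgeR, 6 at an unadjusted p under 0.05 and 4 called by DESeq2. Of 12 monocyte markers, 10 were called higher, all but Ace and Nr4a1, with a median log2 fold change of 1.202, and the summed level of 1736 to 1782 CPM in WT against 1851 to 2163 CPM in KO mice was mostly Ace, which vessels also express. Cx3cr1 among them was 10.1 to 13.0 CPM in WT mice. Its KO levels were 33.4 (KO4), 25.2 (KO5) and 38.6 CPM (KO6), the order that Tlr13 and Clec7a also showed. Ccr2, Csf1r, Treml4, Cd300e and Fcgr4 shared this order, while KO4 was the lowest KO mouse for Ly6c2, Spn, Plac8 and Ms4a4c. By the list median of the log2 level against the WT mean, KO4 was lowest at 0.91, followed by KO5 at 0.97 and KO6 at 1.44. Of 8 neutrophil markers 6 were tested, and edgeR called 3 (S100a8, S100a9 and Retnlg). All 6 had an unadjusted p under 0.05 and DESeq2 called 6, with a median log2 fold change of 1.008. The list's sums were 56.9 to 94.8 CPM in WT and 150 to 169 CPM in KO mice, while its defining genes Ly6g and Camp were below 1 CPM in every mouse.

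Of 8 interstitial macrophage markers 3 were called higher (C1qa, C1qb and C1qc), with sums of 851 to 915 CPM in WT against 816 to 979 CPM in KO mice. In this list 7 had an unadjusted p under 0.05 and DESeq2 called 5. Every KO mouse lay above every WT mouse for 6 of the 8, where 17.0% of all genes tested did so. For 1 marker every KO mouse lay below (15.6% of all genes), at a log2 fold change of -0.78. Of 10 alveolar macrophage markers only Marco was called, with sums of 640 to 980 CPM in WT against 762 to 990 CPM in KO mice. Plasmacytoid dendritic cell markers, a cell type known for Tlr7 and Tlr9, had 0 of 8 called by edgeR, 4 at an unadjusted p under 0.05 and 2 called by DESeq2, sums of 319 to 331 CPM and 361 to 387 CPM, and Siglech at 2.43 to 4.19 and 4.20 to 5.98 CPM. Conventional dendritic cell markers had 2 called higher and 1 lower of 8 (4 at an unadjusted p under 0.05, 3 by DESeq2). NK cell markers had 1 higher of 8 (6 at an unadjusted p under 0.05, 4 by DESeq2). Mast cell and eosinophil markers had 0 of 6 tested (1 at an unadjusted p under 0.05, 0 by DESeq2). Lists of type 2 and type 1 alveolar, endothelial, fibroblast, smooth muscle and airway cells had 0 markers called higher by edgeR, and 1 lower each in the type 1 and endothelial lists. The 7 smooth muscle markers all had log2 fold changes below 0 (median -0.54, and -0.39 without KO5), 6 of them at an unadjusted p under 0.05 and 5 called by DESeq2. Unadjusted counts were 2 or 3 in each of the other 5 of these lists, and DESeq2 called 2 or 3. Red cell genes fell, 5 of 7 called, from sums of 2133 to 2281 CPM to 1038 to 1414 CPM. The part of these cell type differences in the members' changes was not tested.

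**Figure D3:**
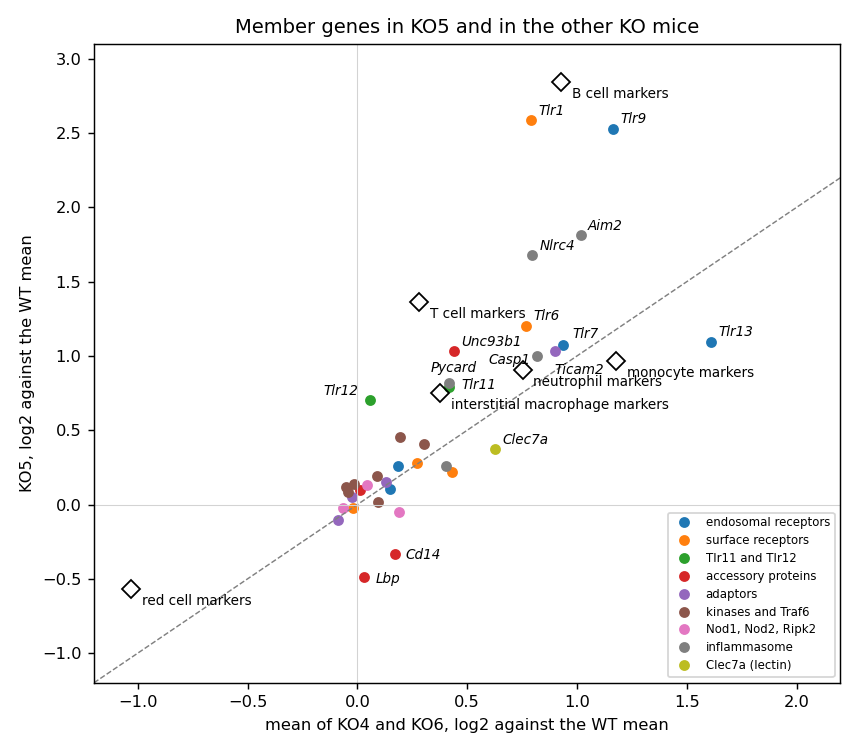
Each member gene placed by its log2 level against the WT mean in KO5 (vertical) and in KO4 and KO6 (horizontal, mean of both), with open diamonds for the medians of 6 marker lists; the dashed line is equality. Tlr1 and Tlr9 lie high above the line near the B cell diamond. Tlr13 and Clec7a lie below it, as do the monocyte diamond and members that were not called, such as Cd14 and Lbp. KO5 was the lowest KO mouse for Tlr13 and Clec7a but not for the monocyte median (0.91, 0.97 and 1.44 in KO4, KO5 and KO6).

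**Figure D4:**
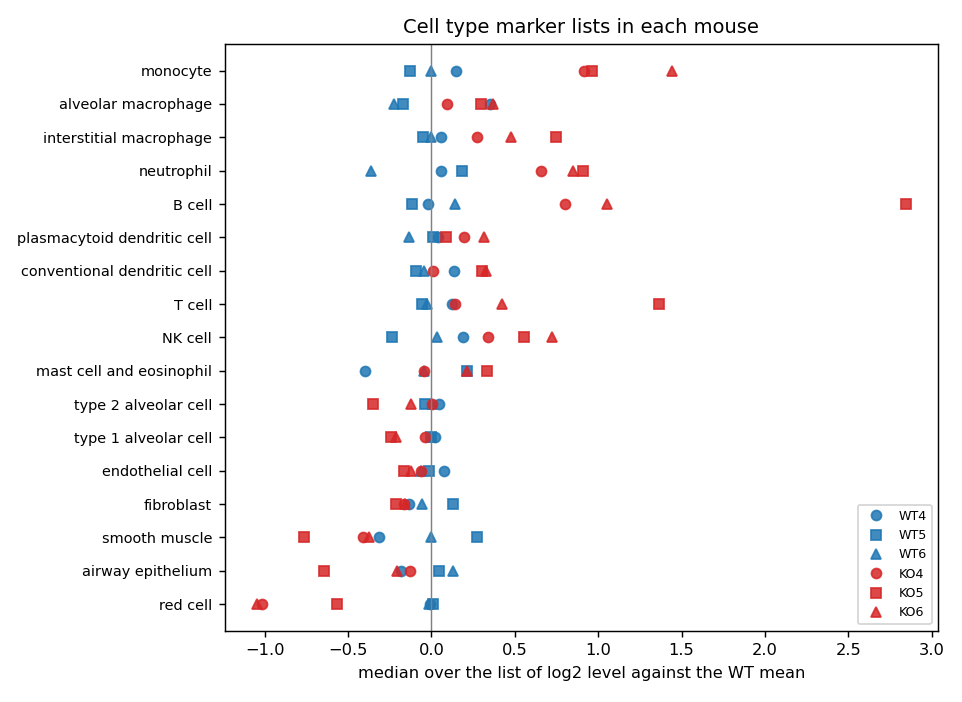
Median over each cell type marker list of the log2 level against the WT mean, 1 point per mouse (blue WT, red KO). The KO mice lie to the right of the WT mice for the monocyte, neutrophil, B cell, NK cell and interstitial macrophage lists. They also do so, with a narrow gap, for the plasmacytoid dendritic cell and T cell lists. KO5 lies far to the right for B and T cells. Red cell genes lie to the left, as do the smooth muscle, type 1 alveolar and fibroblast lists with narrow gaps.

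Other genes of the sensing pathways were read from 8 lists of 105 genes, 104 of them in the table and 99 tested. Of these 99, 32 rose and 0 fell, beside the 3.72% and 2.67% of all genes given above; DESeq2 called 41, of which 1, Hsp90b1, was lower. Their median log2 fold change was 0.33. Without KO5, 30 were called, and without KO6, WT4, WT6 and WT5 the counts were 6, 15, 1 and 0.

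Of 12 receptor partners and trafficking genes 4 rose. Cd180 (RP105), a relative of Tlr4 that B cells and myeloid cells carry, was 11.2, 9.06 and 9.83 CPM in WT mice against 21.5, 41.7 and 28.5 CPM in the KO mice, a log2 fold change of 1.61 with an adjusted p of 0.0189. Its partner Ly86 (MD-1) had 8.90, 8.48 and 9.19 CPM and 17.6, 32.3 and 19.2 CPM, a log2 fold change of 1.39 with an adjusted p of 0.0246. Both were about doubled in KO4 and higher again in KO5, whereas Ly96, the corresponding partner of Tlr4, was not called. The kinase Btk (1.18) and the adaptor Pik3ap1 (0.81) also rose. The folding and cleavage machinery of the receptors (Hsp90b1, Cnpy3, Lgmn) did not pass the test, with log2 fold changes of -0.26, 0.03 and 0.19.

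Of 20 genes leading to NF-kB and MAP kinases edgeR called only Relb (0.64) and Nfkb2 (0.41), the subunits of the noncanonical arm, both higher. The list's median was 0.05, with 6 genes at an unadjusted p under 0.05 and 5 called by DESeq2. Rel (0.64), Ikbke (0.45) and Nfkb1 (0.19) missed the threshold by edgeR but passed by DESeq2, at adjusted p of 0.0178, 0.0135 and 0.0396. Of 16 inhibitors of the pathway 7 rose, and the list had a median of 0.36. They were the immune cell receptors Cd300a (1.58) and Pilra (0.96), Nfkbie (1.06), which holds NF-kB in the cytoplasm, the ubiquitin-editing proteins Tnfaip3 (A20, 0.69), Tnip1 (0.41) and Otulin (0.37), and Trim30a (0.62). Tnfaip3 was 24.9 to 28.4 CPM in WT mice against 40.8 to 46.7 CPM in the KO mice. Tollip and Sigirr were not called, at -0.07 and 0.10. Of 5 interferon regulatory factors, Irf5 (0.94, adjusted p = 0.0189) and Irf7 (0.74, adjusted p = 0.0184), which act below Tlr7 and Tlr9, rose, and Irf3 and Irf1 were at 0.01 and -0.02. Irf8 was 52.4 to 54.2 CPM in WT mice against 62.0, 112 and 78.0 CPM in KO4, KO5 and KO6, a log2 fold change of 0.66 with an adjusted p of 0.0888 by edgeR and 0.00438 by DESeq2, and 0.39 without KO5.

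Of 9 measured genes for cytosolic nucleic acid sensing, 3 rose, Ifi204 (1.10), Zbp1 (0.997) and Dhx58 (0.80), while Mb21d1 (cGAS) and Mavs were at -0.03 and -0.07. Of 14 further inflammasome genes tested, 8 rose, with a median of 0.82. Mefv (pyrin) had the largest change, at 0.938 to 1.13 CPM in WT mice against 3.13 to 4.30 CPM in the KO mice. Naip2 (0.90), Naip5 (1.005) and Naip6 (1.13), the flagellin and secretion system sensors upstream of Nlrc4, rose as well, but they are near-identical neighbours whose reads may be split among them. The others were Nlrp1b (0.97), Casp4 (0.83), Nlrc5 (0.68) and Gsdmd (0.40), the pore former cut by Casp1 and Casp4. Of 8 genes of C-type lectin signalling, 5 rose, Clec4e (1.69), Plcg2 (1.10), Clec4n (0.73), Malt1 (0.72) and Card9 (0.43). Syk was 53.2 to 64.0 CPM in WT mice against 84.6, 210.5 and 103 CPM in KO4, KO5 and KO6, with an adjusted p of 0.0718 and of 0.0196 without KO5.

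Of 15 cytokine and chemokine targets of these pathways that were tested, only Nos2, the inducible nitric oxide synthase, rose (0.82, adjusted p = 0.0303, and 0.0541 without KO5), and the list's median was 0.17. Cxcl10, an interferon-induced chemokine, had a larger log2 fold change of 1.21, with 1.33 to 3.17 CPM in WT mice against 3.91 to 5.83 CPM in the KO mice, an adjusted p of 0.0813 by edgeR and 0.0131 by DESeq2. Il1b and Il18, the substrates of Casp1, had log2 fold changes of 0.53 and 0.17 and overlapping groups, and Tnf was at 0.02 with an SE of 0.38. Il1a was lower in every KO mouse, at 6.6, 5.5 and 6.4 CPM in WT mice against 3.3, 4.6 and 5.2 CPM in KO mice. Its log2 fold change was -0.50, with an adjusted p of 0.154 by edgeR. Over the 15 the log2 fold changes ran from -0.65 to 1.21, with 10 above 0. Il6 and Il10 were too low to be tested, at no more than 0.388 and 0.587 CPM in any mouse, and Ifnb1 had 0 counts in all 6 libraries, where 3 counts correspond to 0.0629 to 0.148 CPM. That floor covers counting error only.

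**Figure D5:**
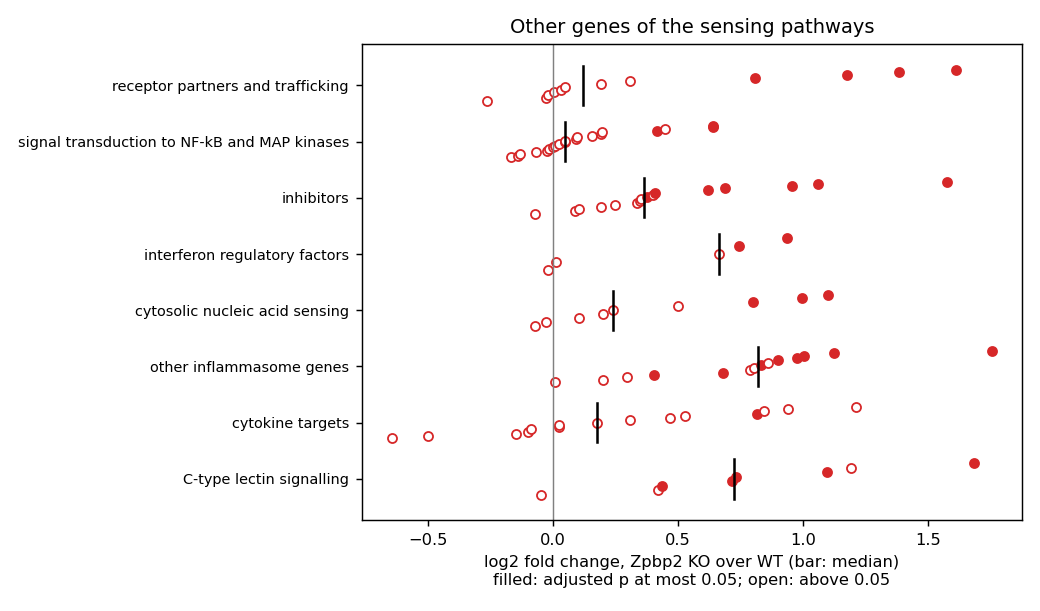
Log2 fold change of each tested gene of 8 pathway lists, KO over WT, with bars at the list medians; filled points have an adjusted p of at most 0.05. Filled points lie to the right of 0 in every list, with 8 among the inflammasome genes, 7 among the inhibitors and 1 among the cytokine targets.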

How the data were processed

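RNA-seq counts of 6 lung libraries, 1 per mouse, were analysed. Per the submitters' processing notes and the methods of the study, the authors trimmed reads with Trimmomatic 0.36, aligned them to GRCm38 with STAR 2.5.3a, used Picard 2.9.0 and counted reads per gene with HTSeq 0.6.0. The strand setting of the counting is not given in the sources used here. The values deposited by the authors are raw counts per gene, not normalized, totalling 19981428 to 46796908 a library; those totals and 3 mice a group set the precision.

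Groups came from the genotype labels. Counts were tested in R 4.3.3 with edgeR 4.0.16: filterByExpr (minimum count 10, minimum total 15), TMM factors, glmQLFit and glmQLFTest on group, and Benjamini-Hochberg adjustment over 17037 genes. A gene was called at an adjusted p of at most 0.05. CPM (counts per 1000000) use the TMM-scaled library size; log2 levels per mouse add 0.5 CPM. The 95% intervals use the t distribution with 7.2 degrees of freedom. The fit was tested on simulated data. DESeq2 1.42.0 and the alternatives of the closing section were also run. Nothing says that litters or days were shared, and p-values measure the spread between these mice only.

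Exon lengths and gene coordinates are from GENCODE M21 (GRCm38), promoter windows from RefSeq (GRCm38.p6). The 36 members and all lists were chosen with earlier results of these data known. Values are given per mouse for called members, every Toll-like receptor and members called under an alternative; from each pathway list up to 5 called genes of largest change, Cd180 and Ly86 are named by rule, and any others named were chosen after their values were seen. Figures used Matplotlib 3.10.9. Libraries from other times are not analysed here.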

Additional observations from a re-analysis of the deposited data

How the results depend on the processing

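The number of members called, 8, stayed within 1.5 times under DESeq2 size factors, upper-quartile factors, no filter on low counts, a minimum of 10 counts in every library, and was 14 with DESeq2, 13 with the edgeR exact test and 2 with the additional log2 fold change of 1.5. Leaving out 1 mouse gave 0 to 10 members and 0 to 33 of the other pathway genes (32 with all mice), lowest without WT5. The median log2 fold change ran from 0.93 to 1.197 for the endosomal and from 0.29 to 0.43 for the surface receptors over these leave-outs. With the replicate number as a block, 2 members (Tlr13 and Casp1) and 0 other pathway genes were called; the numbers share no stated litter or day, and the deviations of same-numbered mice correlated at -0.05, -0.17 and -0.02, so they were not taken as pairs. Over 13 alternatives the 8 called members kept their direction each time and their call in 69 of 104 cases. With 1 mouse left out the direction could not change, as their groups did not overlap. Of the 36 members, 8 changed sign somewhere, all at 0.13 or less on the log2 scale with all mice: without a filter Myd88 (-0.0068), Traf6 (-0.0089) and Map3k7 (-0.0027). With 1 mouse left out the ranges were -0.062 to 0.057 for Tlr4, -0.027 to 0.19 for Ly96, -0.090 to 0.17 for Cd14, -0.27 to 0.032 for Lbp, -0.031 to 0.057 for Myd88, -0.021 to 0.088 for Irak1, -0.047 to 0.027 for Traf6 and -0.056 to 0.049 for Map3k7. The cause of these shifts was not tested. Depth limits Ticam2, Tlr6 and Tlr11, which had the fewest counts.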
